A study of Mus musculus with 17 samples.

Results

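The absorptive enterocyte genes were followed in sorted mouse intestinal stem cells with and without irradiation. The members were the array probes whose gene name was Alpi, Sis, Lct, Fabp1, Fabp2, Apoa1, Apoa4, Vil1, Anpep or Slc5a1, which gave 10 genes with 1 probe each among 27771 gene names tested. Cells came from LGR5-GFPki mice, in which green fluorescent protein reports the stem cell gene Lgr5, and were sorted by that reporter as LGR5hi or LGR5lo. The mice had received 12 Gy of gamma-irradiation (IR) or none (NIR), with a time of 3 h given in the labels. All 4 groups carried the reporter allele. There were 4 arrays of IR LGR5hi cells, 4 of NIR LGR5hi cells, 4 of IR LGR5lo cells and 5 of NIR LGR5lo cells, each group with 2 arrays from females and the others from males. The first slide held replicates 1 and 2 of each group, the second held replicates 3 and 4, and NIR LGR5lo replicate 5 had a slide of its own. Strain and age are not given in the sources used here, and no label says whether a sample pooled mice, so p-values measure only the spread between these samples.

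Absorptive enterocytes are the nutrient-absorbing cells of the intestinal villus, and arise from the crypt stem cells through dividing progenitors. Their apical brush border carries digestive enzymes and nutrient transporters, while their cytoplasm binds fatty acids and packs lipid with apolipoproteins into chylomicrons. The members cover these steps. Alpi (intestinal alkaline phosphatase), Sis (sucrase-isomaltase), Lct (lactase) and Anpep (aminopeptidase N) are brush border enzymes, Fabp1 and Fabp2 bind fatty acids in the cytoplasm, Apoa1 and Apoa4 are secreted apolipoproteins, Vil1 bundles the actin of microvilli, and Slc5a1 is the sodium-glucose cotransporter.

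The bases upstream of the annotated starts of 5 members are printed because Alpi, Sis, Lct and Fabp1 are the members whose windows hold a motif match, and Vil1 is shown as one that holds none. The pooled within-group SD over LGR5hi arrays was 2.18 log2 for Lct, 1.98 for Sis, 1.93 for Alpi and 1.72 for Fabp1. For the members without a match it was 1.98 (Apoa4), 1.89 (Apoa1), 0.93 (Slc5a1), 0.93 (Fabp2), 0.72 (Anpep) and 0.26 (Vil1). Whether a match bears on the spread was not tested. The sequences are RefSeq's, on build GRCm38.p6, each 250 bases long and read 5' to 3' on the gene's strand. Capitals mark matches, on either strand, to 5 short motifs. GTTAAT is given by its letters alone, and CAAAGTC is part of the site of HNF4 factors. TTTATG resembles the site of CDX factors, AGATAA resembles the site of GATA factors. The core promoter box is searched as TATAAA. The windows lie at chr1:87101607-87101856 for Alpi, chr3:72967864-72968113 for Sis and chr1:128328319-128328568 for Lct, all on the minus strand, and at chr6:71199629-71199878 for Fabp1 and chr1:74409134-74409383 for Vil1, on the plus strand.
Alpi: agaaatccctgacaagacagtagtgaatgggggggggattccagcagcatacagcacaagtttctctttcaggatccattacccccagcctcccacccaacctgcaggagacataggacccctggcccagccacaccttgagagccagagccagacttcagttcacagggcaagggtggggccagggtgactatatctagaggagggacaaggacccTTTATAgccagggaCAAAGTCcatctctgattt
Sis: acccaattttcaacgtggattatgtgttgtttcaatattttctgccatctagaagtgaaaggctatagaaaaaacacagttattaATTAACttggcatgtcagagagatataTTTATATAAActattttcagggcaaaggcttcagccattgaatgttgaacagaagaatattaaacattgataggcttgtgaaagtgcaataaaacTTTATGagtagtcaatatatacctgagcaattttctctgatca
Lct: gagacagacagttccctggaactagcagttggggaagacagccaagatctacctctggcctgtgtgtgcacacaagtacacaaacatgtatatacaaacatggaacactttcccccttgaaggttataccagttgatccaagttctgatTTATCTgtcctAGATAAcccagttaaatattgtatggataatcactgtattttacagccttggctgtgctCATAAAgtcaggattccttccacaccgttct
Fabp1: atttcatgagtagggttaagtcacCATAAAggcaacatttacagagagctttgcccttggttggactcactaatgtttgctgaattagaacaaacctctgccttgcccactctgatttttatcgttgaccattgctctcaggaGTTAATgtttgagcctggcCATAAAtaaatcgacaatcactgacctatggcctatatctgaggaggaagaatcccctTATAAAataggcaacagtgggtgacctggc
Vil1: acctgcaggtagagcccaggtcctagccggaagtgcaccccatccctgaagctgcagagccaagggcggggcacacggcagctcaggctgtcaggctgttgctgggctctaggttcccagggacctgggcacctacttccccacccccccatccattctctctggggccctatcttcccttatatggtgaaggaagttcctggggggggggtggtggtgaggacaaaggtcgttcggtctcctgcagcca
Matches to TTTATG occurred in 3 of the 10 members' windows (Sis, Lct and Fabp1), and in 10.8% of all 32851 windows. GTTAAT occurred in 2 windows (Sis and Fabp1; 6.43% of all), CAAAGTC in 1 (Alpi; 3.84% of all), AGATAA in 1 (Lct; 9.99% of all) and TATAAA in 3 (Alpi, Sis and Fabp1; 12.4% of all). In Sis the TATAAA matches of both strands overlapped. Vil1, Fabp2, Apoa1, Apoa4, Anpep and Slc5a1 held none of these letters. A match describes the sequence only.

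The arrays were checked before the members were read. The 75th percentile of the signal was 286 to 627 on the 16 arrays with whole files. NIR LGR5lo replicate 2 stood apart, with 95.6% of its spots above background against 58.9% to 73.9% on the others. Without it, 0 of 10 members passed limma's test in every comparison, as with it. The scanner file of NIR LGR5hi replicate 1 was damaged, and its values were rebuilt from the deposited series table for every fit that used it. The alternative background correction, normexp, needs the scanner file and left that array out. Every member was well above background on all 16 whole arrays and saturated on none. The sort labels were borne out by Lgr5, which was higher in LGR5hi than in LGR5lo cells by 2.89 ± 0.26 log2 in the IR arm and by 3.14 ± 0.25 log2 in the NIR arm (SE of the fit).

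Values below are log2 signals relative to the array's 75th percentile, so they compare arrays for one probe and never one gene with another. Alpi lay at -0.94, -1.68, 0.19 and 1.74 on the IR LGR5hi arrays, and at -1.25, 0.74, 3.06 and -2.07 on the NIR LGR5hi arrays. It lay at 1.86, 2.54, 2.17 and 2.59 on the IR LGR5lo arrays, and at 1.07, 0.42, 2.87, 2.83 and 2.37 on the NIR LGR5lo arrays. The LGR5hi arrays were spread widely in both arms, and the IR and NIR arrays of each sort overlapped. Between sorts, every IR LGR5hi array lay below every IR LGR5lo array, while the NIR groups overlapped. Sis lay at 1.28, 0.34, 2.78 and 3.88 on the IR LGR5hi arrays, and at 1.24, 3.36, 5.16 and -0.08 on the NIR LGR5hi arrays. It lay at 4.13, 4.87, 4.03 and 3.85 on the IR LGR5lo arrays, and at 3.99, 3.14, 5.02, 4.52 and 4.52 on the NIR LGR5lo arrays. Sis was thus also widely spread in LGR5hi cells, and IR LGR5hi replicate 4 reached the lowest IR LGR5lo array.

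Lct lay at 0.02, 0.07, 2.04 and 3.18 on the IR LGR5hi arrays, and at 0.98, 3.04, 4.83 and -1.35 on the NIR LGR5hi arrays. It lay at 1.89, 1.64, 1.76 and 1.23 on the IR LGR5lo arrays, and at 1.18, 1.84, 3.84, 2.71 and 2.05 on the NIR LGR5lo arrays. All 4 groups of Lct overlapped, and the LGR5hi arrays lay on both sides of the LGR5lo arrays. Anpep lay at 5.02, 5.36, 5.62 and 5.24 on the IR LGR5hi arrays, and at 5.27, 6.12, 7.04 and 4.78 on the NIR LGR5hi arrays. It lay at 6.38, 6.56, 5.96 and 6.09 on the IR LGR5lo arrays, and at 5.71, 5.37, 6.44, 1.76 and 6.45 on the NIR LGR5lo arrays. The 1.76 of NIR LGR5lo replicate 4 stood far below the other arrays of its group, and its spot lay in a region of that array where many spots were dim. The IR LGR5hi arrays all lay below the IR LGR5lo arrays. Genes in the same region were also dim on IR LGR5hi replicate 4, with a median deviation from the mean of the group's other arrays of -0.65 log2 inside it and -0.05 outside.

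Among the fatty acid binding proteins, Fabp1 lay at 3.31, 2.39, 4.77 and 5.70 on the IR LGR5hi arrays, and at 2.79, 5.09, 6.53 and 2.46 on the NIR LGR5hi arrays. It lay at 5.79, 5.63, 5.82 and 5.66 on the IR LGR5lo arrays, and at 4.32, 4.15, 6.18, 5.85 and 5.51 on the NIR LGR5lo arrays. The IR LGR5lo arrays were close together, while the other groups were spread across and overlapped them. Fabp2 lay at 5.24, 5.83, 6.05 and 6.76 on the IR LGR5hi arrays, and at 6.16, 6.91, 8.09 and 5.39 on the NIR LGR5hi arrays. It lay at 6.89, 7.22, 6.83 and 6.71 on the IR LGR5lo arrays, and at 6.97, 6.48, 7.98, 7.19 and 7.14 on the NIR LGR5lo arrays. Fabp2 spanned less than Fabp1 and its groups overlapped as well.

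The apolipoproteins followed the same arrays. Apoa1 lay at 0.30, -0.33, 1.90 and 2.75 on the IR LGR5hi arrays, and at 0.04, 2.53, 4.02 and -0.94 on the NIR LGR5hi arrays. It lay at 2.22, 1.83, 2.04 and 1.80 on the IR LGR5lo arrays, and at 0.77, 1.37, 3.43, 2.59 and 2.34 on the NIR LGR5lo arrays. NIR LGR5hi replicate 3 was the highest array of all, and the groups overlapped. Apoa4 lay at -1.44, -2.03, 0.08 and 1.57 on the IR LGR5hi arrays, and at -1.03, 0.76, 2.88 and -2.38 on the NIR LGR5hi arrays. It lay at 0.28, -0.27, -0.04 and 0.06 on the IR LGR5lo arrays, and at -1.30, 0.10, 2.22, -0.05 and 0.04 on the NIR LGR5lo arrays. Replicate 3 was the highest array in both NIR groups of Apoa4.

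Vil1 lay at 6.32, 6.29, 6.50 and 6.88 on the IR LGR5hi arrays, and at 5.99, 6.21, 6.58 and 6.21 on the NIR LGR5hi arrays. It lay at 6.72, 6.60, 6.61 and 6.63 on the IR LGR5lo arrays, and at 6.29, 5.40, 6.41, 6.97 and 6.32 on the NIR LGR5lo arrays. Vil1 thus varied little beside the enzymes. Its IR and NIR arrays overlapped within each sort, as did the sorts within each arm. Every IR LGR5lo array of Vil1 lay above every NIR LGR5hi array, by a narrow margin (6.60 against 6.58). Slc5a1 lay at -0.37, -0.64, 0.93 and 1.44 on the IR LGR5hi arrays, and at -0.17, 0.06, 1.72 and 0.84 on the NIR LGR5hi arrays. It lay at 0.88, 0.61, 1.31 and 1.35 on the IR LGR5lo arrays, and at -0.18, -0.15, 1.33, 1.63 and 1.17 on the NIR LGR5lo arrays. In all 4 groups of Slc5a1 the arrays of the second slide, replicates 3 and 4, lay above those of the first. The average over members, each centred on its own mean, also did so in IR LGR5hi (-1.33 and -1.65, then -0.12 and 0.71). In NIR LGR5lo it did too (-0.33 and -0.39, then 1.36 and 0.39). It did not in NIR LGR5hi (-1.21 and 0.27, then 1.78 and -1.92) or IR LGR5lo (0.50 and 0.52, then 0.44 and 0.39). The part of the slide in the spread was not tested.

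**Figure D1:**
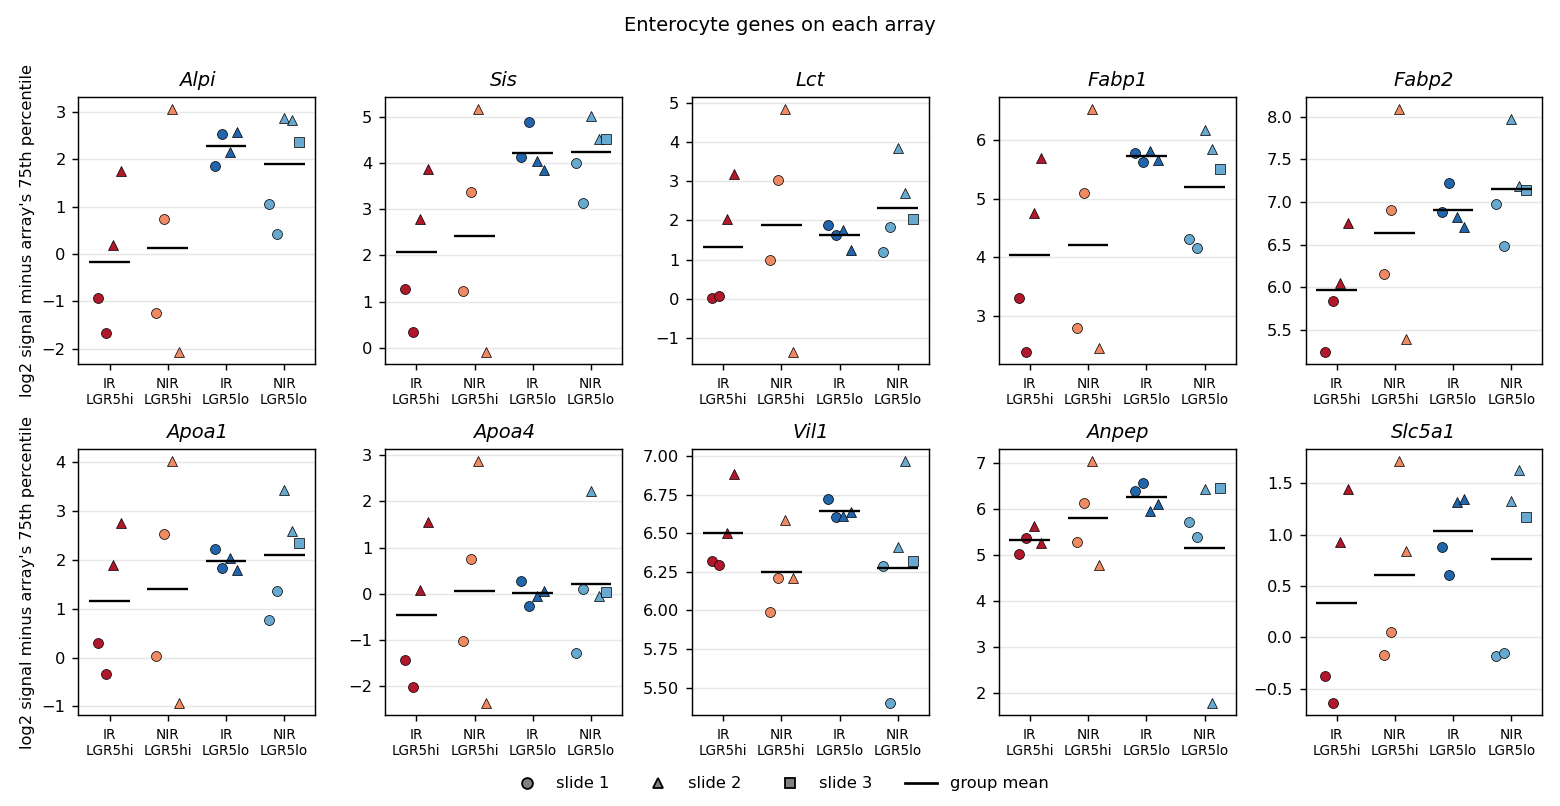
Each panel plots one gene, with the log2 signal relative to the array's 75th percentile on the vertical axis and 1 point per array in each of the 4 groups. Alpi spans -2.07 to 3.06 on the NIR LGR5hi arrays, and Anpep has 1 low NIR LGR5lo array at 1.76.

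In group means, both LGR5lo groups lay above both LGR5hi groups for 6 of the 10 members, namely Alpi, Sis, Fabp1, Fabp2, Apoa1 and Slc5a1. Alpi averaged -0.17 ± 1.49 in IR LGR5hi, 0.12 ± 2.29 in NIR LGR5hi, 2.29 ± 0.34 in IR LGR5lo and 1.91 ± 1.11 in NIR LGR5lo cells (SD, n = 4, 4, 4 and 5). Lct and Apoa4 ran, from high to low, NIR LGR5lo, NIR LGR5hi, IR LGR5lo and IR LGR5hi. Vil1 ran IR LGR5lo, IR LGR5hi, NIR LGR5lo and NIR LGR5hi, and Anpep ran IR LGR5lo, NIR LGR5hi, IR LGR5hi and NIR LGR5lo. Of the 30 pairs of neighbouring groups in these orders, 0 were apart by more than the larger of their SDs.

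The spread between arrays of one group was large for most members. Within NIR LGR5hi cells the highest array was 72.8-fold above the lowest for Lct, 37.9-fold for Sis, 31.1-fold for Apoa1 and 16.8-fold for Fabp1. The same ratio was 6.49 for Fabp2, 4.78 for Anpep, 3.70 for Slc5a1 and 1.51 for Vil1. Within IR LGR5lo cells it reached only 1.08 (Vil1) to 2.04 (Sis). The pooled within-group SD over the 8 LGR5hi arrays was 2.18 log2 for Lct, 1.98 for Sis and for Apoa4, 1.93 for Alpi, 1.89 for Apoa1 and 1.72 for Fabp1, each larger than that of at least 99.5% of all genes. Vil1 had an SD of 0.26 there, larger than that of 43.8% of genes, and the median gene had 0.29. Over the LGR5lo arrays the SD was 0.78 for Lct, 0.61 for Sis, 0.87 for Alpi and 0.69 for Fabp1, against 0.40 for the median gene. The SD was larger over LGR5hi than over LGR5lo arrays for 8 of 10 members, with Vil1 and Anpep as the exceptions.

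**Figure D2:**
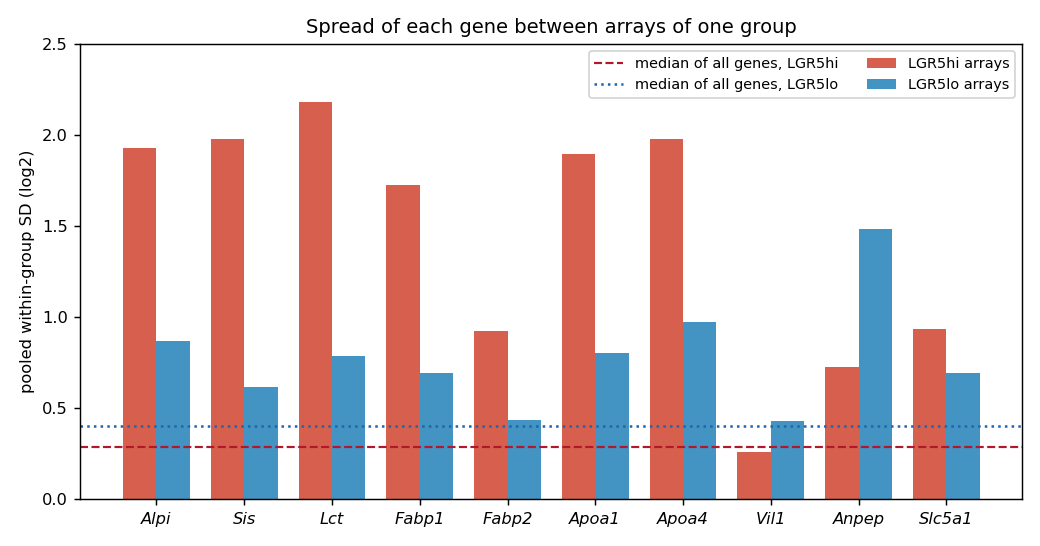
The pooled within-group SD of each member (log2) is plotted over the LGR5hi arrays and over the LGR5lo arrays, beside the median of all genes. Lct reaches 2.18 over LGR5hi arrays against 0.78 over LGR5lo arrays, and Vil1 lies at 0.26 against 0.43.

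The members that were high on one LGR5hi array tended to be high together. NIR LGR5hi replicate 3 was the highest array of its group for 10 of 10 members and NIR LGR5hi replicate 4 the lowest for 8. IR LGR5hi replicate 4 was the highest for 9, and IR LGR5hi replicate 2 the lowest for 7. Averaged over the members, each centred on its own mean, NIR LGR5hi replicate 3 lay 13.1-fold above NIR LGR5hi replicate 4. On these arrays Lgr5 was at 4.12 and 4.13. Of 2 other stem cell genes, Ascl2 was at 5.80 on both, while Olfm4 was at 5.56 and 6.76, opposite to the members. The mean log2 level of the stem cell list was 3.48 on replicate 3 and 3.62 on replicate 4. Marker lists of other cell types moved less between them: the mean log2 level on replicate 3 and replicate 4 was 4.78 and 4.10 for the goblet list, 4.17 and 2.99 for the Paneth list, and -1.76 and -2.10 for the leukocyte list. Their part in the members' spread was not tested. In these sorted bulk samples, fewer enterocytes and less enterocyte RNA per cell cannot be told apart.

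Over the 8 LGR5hi arrays, both arms together, Pearson's r was above 0 for 45 of 45 pairs of members, with a median of 0.85, and the median Spearman's rho was 0.76. In exact permutation tests with Benjamini-Hochberg adjustment over these 45 pairs, 28 passed 0.05 by r and 17 by rho. The genes Alpi, Sis, Lct, Fabp1, Fabp2, Apoa1 and Apoa4, grouped after their values were seen, had a median r of 0.98 over their 21 pairs. For each pair, the 2 arrays farthest from the median of its first gene, in the order of the opening list, were then left out. The arrays left out thus differed between pairs, and Slc5a1, always second, never set them. In this way r was 0.66 to 0.998 among those 21 pairs, but 0.018 to 0.998 over all 45. The median r then fell to 0.50 for pairs with Vil1, against 0.65 with all arrays, and to 0.35 for pairs with Slc5a1, against 0.68. Over the 9 LGR5lo arrays the median r of the 45 pairs was 0.58, and 7 passed by r and 2 by rho. Without NIR LGR5lo replicates 2 and 4, an alternative chosen after seeing the data, 2 passed by r and 1 by rho, and the median r of the pairs with Anpep was 0.56, against -0.09 with both arrays. The permutation tests exchanged the arrays of a sort freely across arms and slides. They therefore cannot separate covariation within a slide or arm from levels that its arrays share. A slide holds 4 arrays of a sort, too few for a value within a slide.

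**Figure D3:**
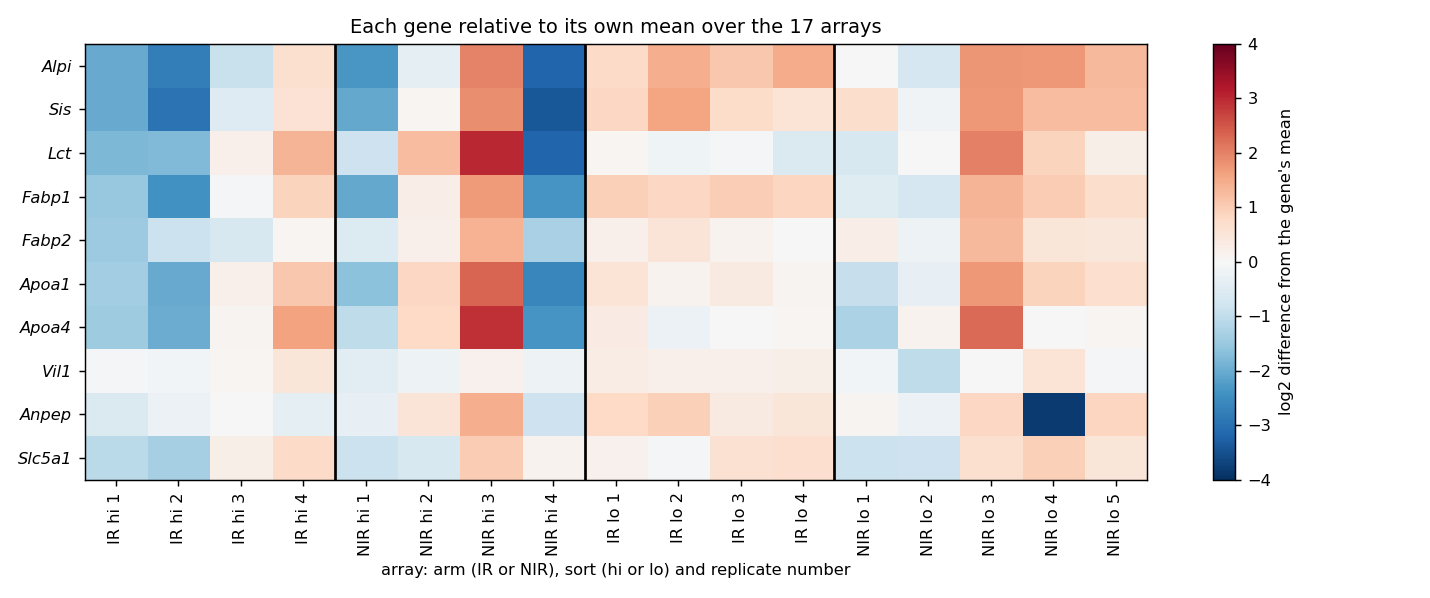
Colours show each member's log2 level on each array, centred on the member's mean over all arrays, with members as rows and arrays as columns. NIR LGR5hi replicate 3 is high and NIR LGR5hi replicate 4 low for most members, at 1.78 and -1.92 on the members' mean.

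Among the 8 genes whose levels over the 17 arrays were most like the members' mean were Treh, Rbp2, Slc15a1, Dpep1, Mpp1, Slc2a2 and Mep1b. The Pearson's r of those named ran from 0.948 (Mep1b) to 0.965 (Treh), given as a description since all points share arrays and scaling. Treh, the brush border trehalase, lay at -1.66, -1.76, -0.20 and 0.81 on the IR LGR5hi arrays, and at -0.93, 0.67, 2.26 and -1.57 on the NIR LGR5hi arrays. NIR LGR5hi replicate 3 was again the highest array, and replicate 4 the lowest of its group.

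Irradiation was asked about first, within each sort. In LGR5hi cells 0 of 10 members passed limma's test at an adjusted p of 0.05, and 0 had an unadjusted p under 0.05, where 13.5% of all genes were called. The IR minus NIR difference ran from -0.67 for Fabp2 (95% interval -1.66 to 0.33) to 0.25 for Vil1 (-0.28 to 0.79). Alpi differed by -0.29 log2 (-2.31 to 1.73) and Lct by -0.55 (-2.75 to 1.66). The members' median was -0.32, against -0.02 over all genes, and its sign rested on single arrays: it was 0.43 without NIR LGR5hi replicate 3 and 0.14 without IR LGR5hi replicate 2, but -1.03 without NIR LGR5hi replicate 4 and -0.86 without IR LGR5hi replicate 4. These intervals span several fold in both directions for the enzymes, so a change of that size was not detectable with these arrays.

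In LGR5lo cells 0 of 10 members passed and 0 had an unadjusted p under 0.05, where 7.49% of all genes were called. Anpep had the highest difference, 1.10 (-0.47 to 2.68), which was 0.26 without NIR LGR5lo replicate 4 (limma, adjusted p = 0.672). Lct had the lowest, -0.69 ± 0.98 (SE), and Alpi differed by 0.38 (-1.54 to 2.29). The members' median was 0.13, against -0.13 over all genes, and turned to -0.01 under quantile normalization, -0.11 without NIR LGR5lo replicate 2 and -0.02 without NIR LGR5lo replicate 1. The difference between the irradiation effects of the sorts passed for 0 members by limma, with adjusted p of at least 0.715 and 0.0396% of all genes called (0.036% higher and 0.0036% lower).

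**Figure D4:**
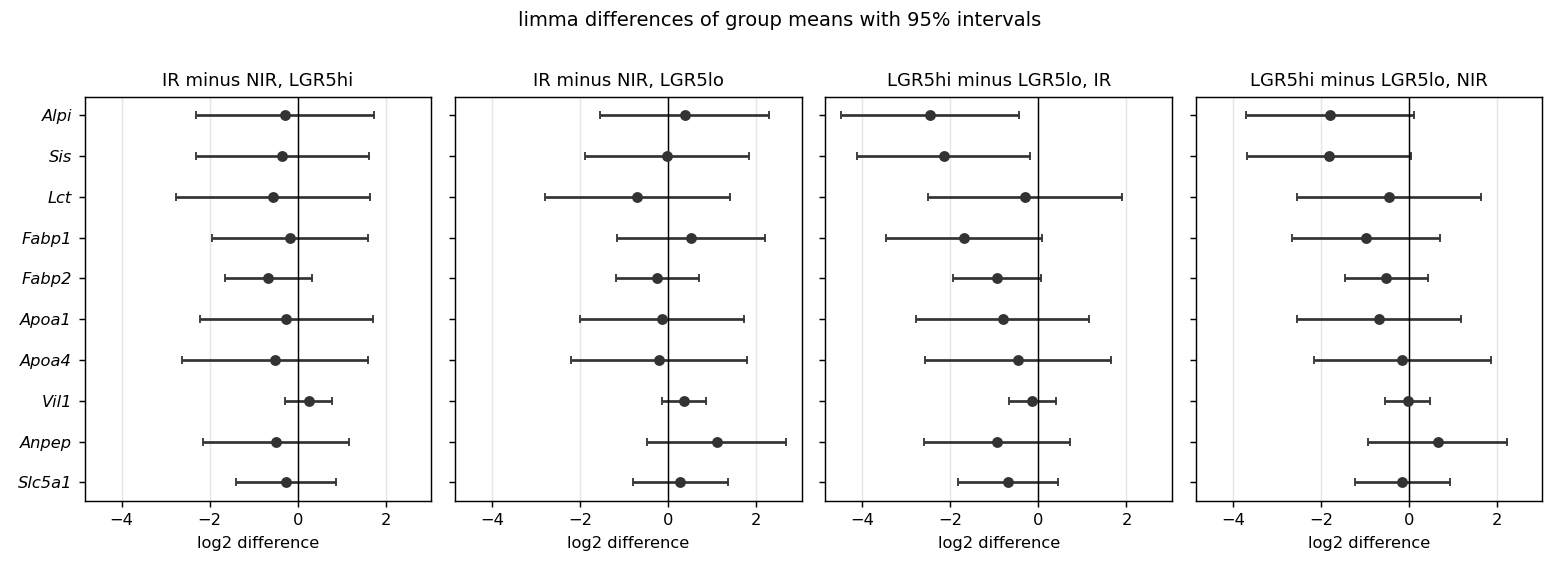
Points give each member's log2 difference in each comparison and bars its 95% interval from the limma fit. In IR cells, LGR5hi minus LGR5lo, the intervals of Alpi (-4.48 to -0.44) and Sis lie below 0.

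The slides gave different pictures of irradiation. In LGR5hi cells the members' median difference was -1.07 on the first slide and 0.52 on the second, and 6 of 10 members changed sign between them. In LGR5lo cells it was 0.92 on the first and -0.64 on the second, and 9 of 10 changed sign. Sis, for example, differed by -1.49 and 0.79 in LGR5hi cells, and by 0.94 and -0.83 in LGR5lo cells. No member was called by limma on either slide, where each group has 2 arrays.

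**Figure D5:**
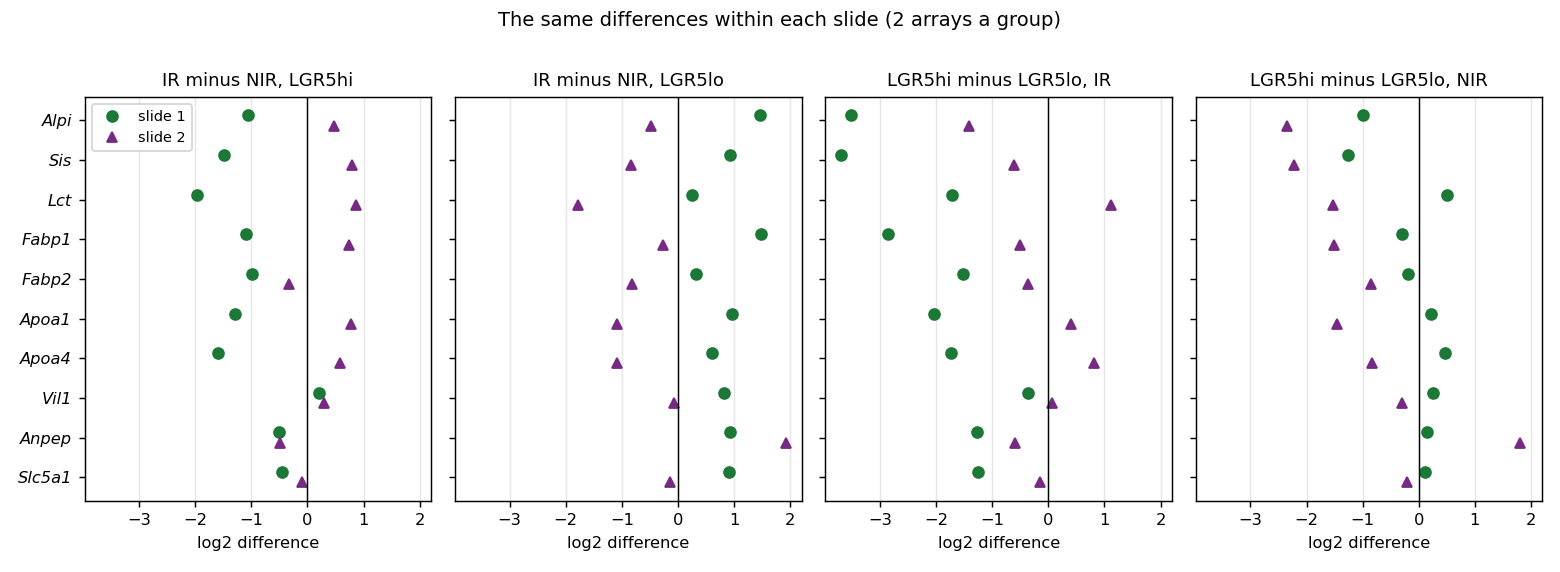
Each member's log2 difference on the first slide is set beside that on the second, for each comparison. For irradiation in LGR5lo cells the members' median is 0.92 on the first slide and -0.64 on the second.

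The LGR5hi and LGR5lo sorts were then compared within each arm. In IR cells 0 of 10 members passed limma's test, where 6.31% of all genes were called, and Alpi and Sis had an unadjusted p under 0.05. Alpi was at -0.17 ± 1.49 in LGR5hi and 2.29 ± 0.34 in LGR5lo cells, a difference of -2.46 (95% interval -4.48 to -0.44, limma adjusted p = 0.168). Sis was at 2.07 ± 1.57 in LGR5hi and 4.22 ± 0.45 in LGR5lo cells (SD, n = 4 each), a difference of -2.15 with an adjusted p of 0.226 in limma. All 10 differences were below 0, with a median of -0.88, against 0.05 over all genes. By slide, the members' median was -1.73 on the first and -0.25 on the second, and 4 of 10 members changed sign. The groups did not overlap for 2 members, Alpi and Anpep, as for 21.1% of all genes. With only the IR groups in the limma fit, Alpi (adjusted p = 0.046) and Anpep (-0.94, adjusted p = 0.014) passed, and with array weights Alpi did (adjusted p = 0.022). The Anpep difference includes IR LGR5hi replicate 4, which was dim around its spot, and was -0.91 without that array (limma adjusted p = 0.720 in the fit over all groups).

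In NIR cells 0 of 10 members passed limma's test and 0 had an unadjusted p under 0.05, where 9.55% of all genes were called. Alpi differed by -1.79 (95% interval -3.71 to 0.12) and Sis by -1.82. The members' median was -0.48, against -0.08 over all genes, with -1.26 without NIR LGR5hi replicate 3 and -0.06 without NIR LGR5hi replicate 4. It was 0.13 on the first slide and -1.15 on the second, and 5 of 10 members changed sign. One array decided these calls: without NIR LGR5hi replicate 3, Alpi differed by -2.77 (limma adjusted p = 0.039) and Sis by -2.73 (adjusted p = 0.042). Anpep differed by 0.65, and by -0.19 without NIR LGR5lo replicate 4.

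Same-numbered LGR5hi and LGR5lo arrays gave the same uneven picture. In the IR arm the member was lower in LGR5hi for 10, 10, 8 and 2 of the 10 members in pairs 1 to 4, with median differences of -1.80, -1.67, -0.36 and 0.07. In the NIR arm the counts were 8, 0, 0 and 9, with medians of -0.59, 0.70, 0.37 and -2.86. Alpi was lower in LGR5hi in 4 of 4 IR pairs and 2 of 4 NIR pairs.

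Marker genes of other intestinal cell types were read in the same fit. In NIR cells 16 of 16 enteroendocrine, 10 of 11 goblet and 13 of 13 tuft genes were lower in LGR5hi by limma, as were 7 of 18 leukocyte genes. The summed signal of the enteroendocrine list, in multiples of the array's 75th percentile, was 32.9 to 77.3 in NIR LGR5hi and 570 to 776 in NIR LGR5lo cells. That of the 10 members was 153 to 691 in NIR LGR5hi and 209 to 568 in NIR LGR5lo cells, which overlapped. The goblet gene Muc2 and the leukocyte genes Cd3g and Ighm were not among the genes tested. The part of these lineages in the members' differences was not tested.

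The wider enterocyte programme was described through 6 lists, called by the same limma fit. Of all genes, 6.18% rose and 7.28% fell with irradiation in LGR5hi cells, and 4.47% rose and 3.02% fell in LGR5lo cells. Between the sorts, 4.62% were higher and 4.93% lower in LGR5hi in NIR cells, and 2.21% higher and 4.09% lower in IR cells. The list called brush border hydrolases also holds Tm4sf20, a membrane protein, and Lipa, a lysosomal lipase. With irradiation in LGR5hi cells, 2 of its 16 genes fell and 0 rose, with a list median of -0.59. Without NIR LGR5hi replicate 3 the median was -0.04 and 0 passed, and 0 passed without IR LGR5hi replicate 1 or 3, with median centring or with normexp. Mep1a, a meprin metalloprotease subunit, fell by 1.77 log2 and Dpp4, a dipeptidyl peptidase, fell by 0.82 (limma adjusted p = 0.024 and 0.042). Outside the single slides, Mep1a was called in 26 and Dpp4 in 15 of 31 alternatives. Of 24 lipid absorption genes 5 fell and 1 rose, with a median of -0.45. Abcg5, a sterol exporter, fell by 1.83 log2 and the lipid droplet coat gene Plin2 fell by 1.05, while the lipoprotein receptor Scarb1 rose by 1.77 ± 0.17. Of 27 transporters 2 fell, including the amino acid transporter Slc7a8, which fell by 1.03 log2, and 0 passed without NIR LGR5hi replicate 3. Of 26 transcription factors 4 fell and 0 rose: among them the vitamin D receptor Vdr fell by 2.12 log2 and Ppara by 2.35. Of 16 structural genes 2 rose, the membrane linker Ezr by 0.92 log2 and the actin bundler Espn by 1.16, and Baiap2l1 fell by 0.73. Of 40 other mature markers 4 rose and 4 fell. Among them the keratins Krt8 and Krt19 rose by 1.17 and 1.15 log2. Both are also in the list of general epithelial markers, of which 3 of 7 rose, so they are not particular to enterocytes.

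With irradiation in LGR5lo cells, 0 of 16 hydrolases and 0 of 27 transporters passed limma's test. Ezr rose by 0.99 log2 and Scarb1 by 0.69, the bile acid receptor Nr1h4 rose by 1.10, and Vdr fell by 1.15. Creb3l3, a transcription factor of lipid metabolism whose spot lies in the same dim region as that of Anpep, rose by 2.22 log2, and by 2.14 without NIR LGR5lo replicate 4 (limma adjusted p = 0.032). Between the sorts in NIR cells, 0 of 16 hydrolases passed, while 6 of 40 other mature markers were lower in LGR5hi. These included Guca2a, the guanylin precursor, at -2.65 log2, Gsdmc4 at -2.92 and Rbp7 at -1.92. The transcription factor Klf4 was lower in LGR5hi by 1.56 on the log2 scale, and Vdr and Hes1 were higher by 0.98 and 1.09. In IR cells 0 of 16 hydrolases passed in either direction. Of 24 lipid genes 4 were lower and 1, Scarb1, was higher in LGR5hi (0.71 log2, limma adjusted p = 0.017), named here after its value was seen. Of the other lists 8 of 40 other mature markers, 7 of 26 transcription factors, 5 of 27 transporters and 3 of 16 structural genes were lower and 0 higher. These counts moved with single arrays. Over the alternatives outside the single slides they ran from 4 to 20, 2 to 12, 3 to 12 and 0 to 9. For the lipid genes the range was 1 to 14.

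The lists also differed in how closely they followed the members over the 8 LGR5hi arrays. Pearson's r with the members' mean was above 0.7 for 12 of 16 hydrolases, 18 of 27 transporters, 12 of 24 lipid genes and 21 of 40 other mature markers. It was above 0.7 for 4 of 26 transcription factors and 4 of 15 structural genes, and for 3.18% of all genes. Some markers of other cell types followed the members too: 4 of 11 goblet genes had an r above 0.7, with a list median of 0.68. The same held for 2 of 9 Paneth, 2 of 16 enteroendocrine, 2 of 18 leukocyte and 1 of 4 erythrocyte genes. Their list medians were 0.31, 0.30, 0.43 and 0.33. None of the 19 stem cell, 13 tuft or 11 stromal and endothelial genes had an r above 0.7. Other marker genes went the other way, with a lowest r of -0.80 among goblet and -0.89 among leukocyte genes. Of all genes, 4.31% had an r below -0.7. These counts are descriptions, since the arrays and their scaling are shared by all genes.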

How the data were processed

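RNA from 17 samples was measured on single-colour Agilent arrays. Each deposited scanner file gives the Cy3 intensity of a spot on a linear scale, background-subtracted by the authors with Agilent Feature Extraction 10.7.3.1, per the submitters' processing notes. The other columns used, spot flags of 0 or 1, are as deposited. The deposited series table holds log2 values, scaled per array and centred per probe. Its construction was inferred from the values. For the damaged NIR LGR5hi replicate 1, with 15329 of 62976 spots readable, values came from that table and, once a constant was removed, 100% of 13422 probes in the readable portion differed by at most 0.02 log2, so that array's level was not checked.

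Processed signals were scaled to each array's 75th percentile, flagged spots left out and spots of a probe averaged. A probe had to exceed background well on 4 or more arrays, which kept 41444 of 55681. The brightest probe per name was tested, with symbols updated through RefSeq for 2837 of 27229 matched probes. Group means over all 17 arrays were fitted with limma 3.58.1 in R 4.3.3, with Benjamini-Hochberg adjustment at 0.05. The number of arrays limits the precision. Probe coordinates are on mm9 per the file headers and are not mixed with the GRCm38.p6 windows. The fit was tested on simulated data.

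Members and lists were chosen with earlier results of these data known. Besides the members, the text names, per list, up to 3 genes with the smallest p in the NIR sort comparison and in each irradiation effect, and the 8 genes most like the members; some genes under this rule are not reported here. Deviations from group means correlated between same-numbered LGR5hi and LGR5lo arrays of an arm in all 8 pairs (0.122 to 0.457), a hint of pairing. The hint is weak, since same-numbered arrays of different arms gave -0.100 to 0.339, which overlaps that range. No label states a pairing, so the main fit, its intervals and its p-values are unpaired. Pairing entered only the comparison of same-numbered arrays and the alternatives with a replicate block. Alternatives covered scaling, background correction, filters, slide and replicate blocks, array weights and leaving out each array.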

Additional observations from a re-analysis of the deposited data

Results flagged for a closer look

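Anpep on NIR LGR5lo replicate 4 lay at 1.76, against 5.37 to 6.45 on the other 4 arrays of its group, and so was 12.2-fold below the next. It was the only one of 40 sets of one member in one group in which an array lay this far from the others, and chance alone gives about 1 in 20 such sets. On that array 413 genes lay at least 3 log2 below every other array of the group, against 0 to 7 genes on each of the other 16 arrays compared in the same way within their groups. The smallest rectangle of the spot layout that holds all 413 spans rows 142 to 230 and columns 68 to 102, which is 4.95% of its area. The spot of Anpep is the only member spot of 19 inside it. Without that array Anpep's irradiation difference in LGR5lo cells was 0.26.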

How the results depend on the processing

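Of 1700 member differences under the alternatives, 118 changed sign, 33 of them among the 100 from single slides, and 5 became called in limma. With members called at 0 in every comparison, leaving out each array in turn gave 0 to 2 called between sorts in NIR cells. Between sorts in IR cells the count was 2 with only the groups compared and 1 with array weights. With the replicate block within each arm 0 members were called, and Alpi differed by -2.46 (adjusted p = 0.139) in IR cells and -1.68 (adjusted p = 0.261) in NIR cells, LGR5hi minus LGR5lo. The replicate block changed no other call of a member. Of 38 named calls in the lists, 13 held under every alternative outside the single slides and 0 reversed. Under median centring the called genes of irradiation in LGR5lo cells were 1055 higher and 223 lower, against 1242 and 838. Between sorts in IR cells they were 262 higher and 799 lower, against 615 and 1136. The median difference of all genes with irradiation in LGR5lo cells, -0.13, became 0.06 under quantile normalization and 0.12 under median centring. Over all genes, the 3740 calls of irradiation in LGR5hi cells became 2357 with median centring, 2299 with normexp and 7090 with array weights. On the single slides they became 265 and 1567. The normexp fit also lacked NIR LGR5hi replicate 1. Leaving out that array alone gave 2842 calls here and 1439 between sorts in NIR cells. The 2080 calls in LGR5lo cells became 1278 with median centring, 3391 with array weights, 788 with only the groups compared, and 42 and 461 on the single slides. The 2651 calls between sorts in NIR cells became 988 with normexp, 4192 with irradiation arm and number as a random block, 1156 with only the groups compared, and 105 and 246 on the single slides. The 1751 in IR cells became 1061 with median centring, 2893 with the random block, 5030 with array weights, 3114 with only the groups compared, and 319 and 118 on the single slides. Leaving out 1 array at a time gave 1179 to 1275 in LGR5lo cells without IR LGR5lo replicate 1, 3 or 4. Between sorts it gave 1439 (without NIR LGR5hi replicate 1) to 4226 (without NIR LGR5lo replicate 1) in NIR cells, and in IR cells 1062 without IR LGR5lo replicate 1 and 2867 without NIR LGR5lo replicate 2. The 11 calls for the difference of effects ran from 0 to 94. With the replicate block, and NIR LGR5lo replicate 2 left out, a setting chosen after seeing the data, 5739 genes were called between sorts in IR cells. The cause of these shifts was not tested.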
